A study of Mus musculus with 3 samples.

Results

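The 10 core enzymes of glycolysis that carry glucose to pyruvate and lactate, Hk2, Gpi1, Pfkl, Aldoa, Tpi1, Pgk1, Pgam1, Eno1, Pkm and Ldha, were followed in MigA9 cells after exposure to DB818. They were chosen by gene name in the scanner files, with Pkm2 accepted as the older name of Pkm, and were 10 of 27389 genes and 16 of 41174 probes on the array. MigA9 is a mouse hematopoietic line transformed by the homeobox factor Hoxa9 and grown in serum-containing medium with GM-CSF-conditioned medium; the labels name 1 line and do not say whether it is a clone. DB818 is a compound that binds the minor groove of DNA and is known as an inhibitor of HOXA9 at its DNA sites. The treated groups were cells given 2.5 µM DB818 for 6, 12 or 24 h, and the other group was untreated cells of the same Hoxa9-transformed line. Each treated RNA (Cy5) shared 1 array with untreated RNA (Cy3), so there was 1 array per time and the dyes were not swapped. The question was how the transcripts of the pathway stood in treated against untreated cells at each time.

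Glycolysis splits glucose into pyruvate in the cytosol with a net gain of ATP and NADH, and lactate dehydrogenase regenerates NAD+ from that NADH. In proliferating blood progenitors and leukemic cells the pathway is used heavily even with oxygen present. Several of its genes are induced together by hypoxia-inducible factor and by MYC. No probe was found under the name Gapdh, the dehydrogenase between triose phosphate isomerase and phosphoglycerate kinase, so it was not analysed here.

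Hk2 (hexokinase 2, chr6:82725025-82774454 on GRCm38.p6) traps glucose as glucose 6-phosphate, and Gpi1 (chr7:34201327-34230336) isomerises it to fructose 6-phosphate. Pfkl, the liver-type phosphofructokinase (chr10:77986947-78009807), commits the sugar to glycolysis. Aldoa, aldolase A (chr7:126795234-126800994), cleaves it into triose phosphates, which Tpi1 (chr6:124810586-124814158) interconverts. Pgk1, phosphoglycerate kinase (chrX:106187100-106203699), makes ATP, and Pgam1 (chr19:41911871-41918665) moves the phosphate that remains. Eno1, alpha-enolase (chr4:150236708-150248879), makes phosphoenolpyruvate. Pkm, the muscle-type pyruvate kinase gene (chr9:59656576-59679372), makes ATP and pyruvate, and Ldha, lactate dehydrogenase A (chr7:46842274-46855627), reduces pyruvate to lactate.

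All 10 genes had at least 1 probe well above background in both channels on all 3 arrays. In all, 10955 genes had a value on every array from unsaturated probes above background, not always the same probe. Repeated spots of 1 probe had an SD of 0.034 to 0.051 in their log2 ratio over the arrays, which covers spotting and scanning only. Of 13 myeloid markers on the array, 13 were above background in both channels on every array, as were 0 of the 4 T cell, 5 B cell, 4 erythroid, 4 fibroblast and 4 epithelial markers. The labels do not say whether the untreated RNA of the 3 arrays was 1 preparation or several. The 3 times stood in for replicates, so a change with time counted as error, and a dye bias that is the same on every array would enter the mean. In RNA from whole cultures, fewer cells of a kind and less RNA per cell cannot be told apart.

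Averaged over the 3 times, 5 of the 10 enzyme transcripts were lower in treated cells (Eno1, Pfkl, Pgam1, Pkm and Tpi1), Hk2 was higher, and Gpi1, Aldoa, Pgk1 and Ldha did not pass the test (limma, mean log2 ratio against 0, Benjamini-Hochberg adjusted p under 0.05 over 10955 genes). Over all measured genes 7.86% were called lower and 20.1% higher. The median of the 10 means was -0.19, against 0.029 over all genes, and without the 6 h array it was -0.092. By time, the medians of the 10 log2 ratios, treated over untreated, were -0.31, -0.094 and -0.11 at 6, 12 and 24 h, against 0.029, 0.027 and 0.030 over all genes. These enzymes are bright: with all genes ordered by signal in 10 equal bins, 8 of the 10 enzymes were in bin 10, the brightest, with Pfkl in bin 8 and Eno1 in bin 9. In bin 10, 18.9% of genes were called lower, against 3 of the 8 enzymes there; in bins 8 and 9, which hold Pfkl and Eno1, 10.6% and 10% were. The directions depend on the loess step: with the arrays centred on the median alone, the median of the 10 means was 0.31, 2 enzymes were called lower and 7 higher, and the genes of bin 10 had median ratios of 0.43, 0.37 and 0.43 at 6, 12 and 24 h.

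The split of all calls also moved with the scaling. It was 861 lower to 2199 higher with loess, 4482 to 4140 with median centring, 640 to 590 from Agilent's processed signals, and 1235 to 1320 relative to genes of like brightness.

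**Figure D1:**
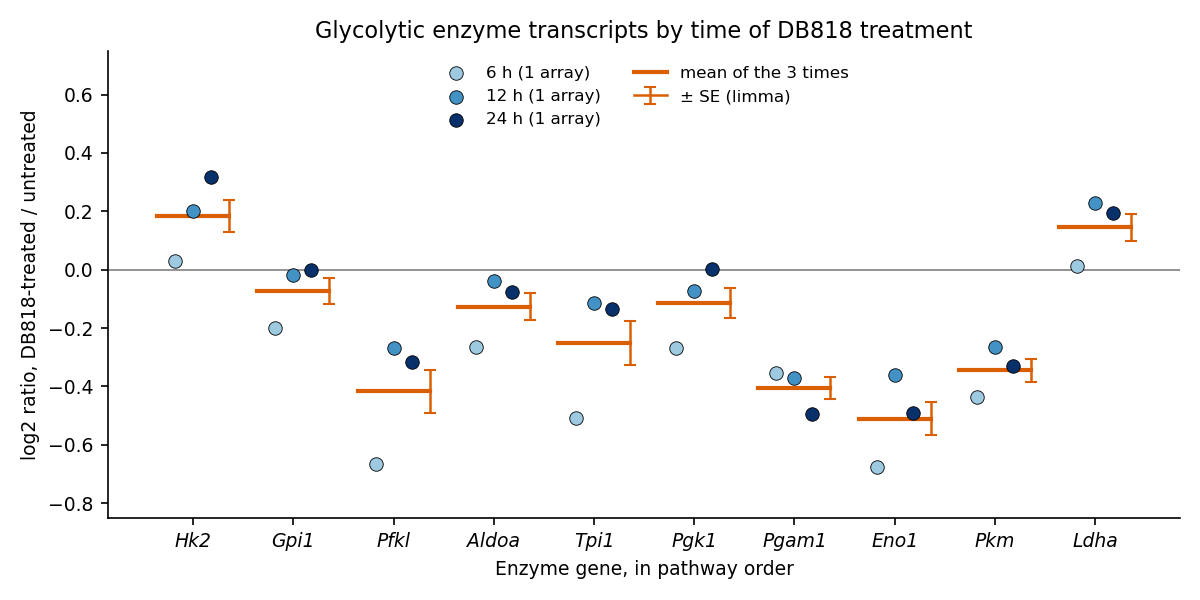
Log2 ratio of treated over untreated cells (y axis) for each enzyme gene in pathway order (x axis). Points are single arrays at 6, 12 and 24 h, and the orange line is their mean with its SE from limma (n = 3 arrays). Pfkl, Tpi1, Pgam1, Eno1 and Pkm lie below 0 at every time and Hk2 and Ldha above it, while most 6 h points are the lowest of their gene; centred on the median without loess, the means of Gpi1, Aldoa, Tpi1, Pgk1, Pgam1 and Pkm change sign.

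Eno1 had the lowest mean ratio of the enzymes. Its log2 level on the 6, 12 and 24 h arrays was 9.36, 9.38 and 9.27 in treated cells. In untreated cells it was 10.03, 9.75 and 9.77, so all 3 treated values lay below all 3 untreated ones. Such separation needs a lower ratio on all 3 arrays, which 21% of genes had. The share of all genes that separated in full was not counted. The levels hold the same ratios, so the separation describes them and adds no further support. The Eno1 log2 ratios of -0.68, -0.36 and -0.49 correspond to transcripts 1.60-fold, 1.28-fold and 1.41-fold lower. The mean was -0.51 ± 0.057 (SE, n = 3 arrays, limma adjusted p = 0.00453). Pfkl, the enzyme of the committing step, followed: its log2 level was 8.87, 8.66 and 8.65 in treated cells and 9.54, 8.93 and 8.97 in untreated cells. Here too the treated and untreated values did not overlap. Its mean log2 ratio was -0.42 ± 0.074 (limma adjusted p = 0.0102), and its ratios were -0.67, -0.27 and -0.32 at 6, 12 and 24 h.

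Pgam1 was the enzyme whose ratio was lowest at 24 h. Its log2 level was 13.46, 13.34 and 13.17 in treated cells and 13.81, 13.71 and 13.67 in untreated cells, and the ratios were -0.35, -0.37 and -0.49 at 6, 12 and 24 h. The values of treated and untreated cells did not overlap, and the mean was -0.41 ± 0.037 (limma adjusted p = 0.00337). Pkm, which makes the last ATP of the pathway, had log2 levels of 11.04, 11.10 and 10.96 in treated cells and 11.48, 11.37 and 11.29 in untreated cells. Its ratios were -0.44, -0.26 and -0.33, with a mean of -0.34 ± 0.040 (limma adjusted p = 0.00468), again without overlap. Tpi1 had log2 levels of 12.51, 12.60 and 12.60 in treated cells and 13.02, 12.71 and 12.74 in untreated cells. The ratio of Tpi1 was -0.51 at 6 h but -0.11 and -0.14 at 12 and 24 h, and its mean of -0.25 ± 0.075 passed narrowly (limma adjusted p = 0.0462). From Agilent's processed signals Tpi1 was not called (adjusted p = 0.148), nor was it without the 12 h array (adjusted p = 0.0669). Without the 6 h array its mean was -0.12 (adjusted p = 0.032). Its treated and untreated levels did not overlap. For Pgam1, Pkm and Tpi1 too, the share of all genes without overlap was not counted, and the levels hold the same ratios.

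Taken from lowest to highest mean, Eno1, Pfkl, Pgam1, Pkm and Tpi1 each stood within the summed standard errors of the next, and differences between enzymes were not tested. Eno1, Pfkl, Pgam1, Tpi1 and Hk2 had 1 probe each, so settings that choose among probes could not change their means. Eno1 and Pfkl stayed lower under all 14 alternative settings, and Eno1 passed in all 14 and Pfkl in 13 of them. Pgam1 and Pkm stayed lower and called in 13 of 14, and with median centring their means were 0.13 and 0.023. Tpi1 was called lower in 6 of 14, and with median centring it was called higher (mean 0.23, adjusted p = 0.0243).

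Hk2, at the entry of the pathway, was the enzyme called higher. Its log2 level was 10.94, 10.66 and 10.94 in treated cells and 10.91, 10.46 and 10.62 in untreated cells. The ratio was 0.031, 0.20 and 0.32 at 6, 12 and 24 h, so treated cells had 1.02-fold, 1.15-fold and 1.247-fold as much transcript. The mean was 0.18 ± 0.054 (limma adjusted p = 0.044), which was past the threshold in 7 of 14 alternative settings and above 0 in all 14. It was not past the threshold without the 12 h array, where the mean was about as large (0.17, adjusted p = 0.181), or without the 24 h array, where it was smaller (0.12, adjusted p = 0.135). Ldha, at the exit, had ratios of 0.014, 0.23 and 0.20 and a mean of 0.15 ± 0.046 that did not pass (limma adjusted p = 0.0557). The Ldha mean was above 0 in all 14 alternative settings and past the threshold in 6 of them, against 7 for Hk2. The 6 h value of Ldha came from 1 probe and the later values from 2, since the scanner marked a spot of the dimmer probe as an outlier at 6 h. The brighter probe alone read 0.014, 0.34 and 0.30, and with probes measured on all 3 arrays, an alternative chosen after seeing the data, Ldha passed (mean 0.22, adjusted p = 0.0407), as it did without the 6 h array (mean 0.21, adjusted p = 0.00543). By that probe its log2 level was 13.97, 14.05 and 14.30 in treated cells and 13.96, 13.71 and 14.00 in untreated cells.

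The other enzymes had small mean ratios. Gpi1 had ratios of -0.20, -0.019 and -6e-04 and a mean of -0.073 ± 0.045 (limma adjusted p = 0.254). Aldoa had -0.26, -0.039 and -0.078 and a mean of -0.13 ± 0.047 (adjusted p = 0.0856). Pgk1 had -0.27, -0.074 and 0.0020 and a mean of -0.11 ± 0.052 (adjusted p = 0.143). These 3 genes had their lowest ratio at 6 h and ratios close to 0 at 12 and 24 h.

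Where 2 probes of a gene were measured at all times, they had the same sign, except for Pgk1 at 24 h. The Pkm probes had ratios of -0.40 and -0.47 at 6 h, and the Pgk1 probes -0.33 and -0.21. At 24 h the Pgk1 probes read -0.045 and 0.049. Further probes of Gpi1 and Pkm were not well above background in either channel and were left out. A second Aldoa probe was saturated in the treated channel on all 3 arrays, so its treated signal is a lower bound and its ratios of -0.41, -0.30 and -0.53 give no direction. Keeping it would have moved the Aldoa mean to -0.27 (adjusted p = 0.00625). The Aldoa probe that was kept read 58704, 61096 and 62942 in Cy5, not far below the signal of 65266 at which the other saturated. Cross-hybridisation with processed copies of these genes was not tested, since probe sequences were not used here.

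**Figure D2:**
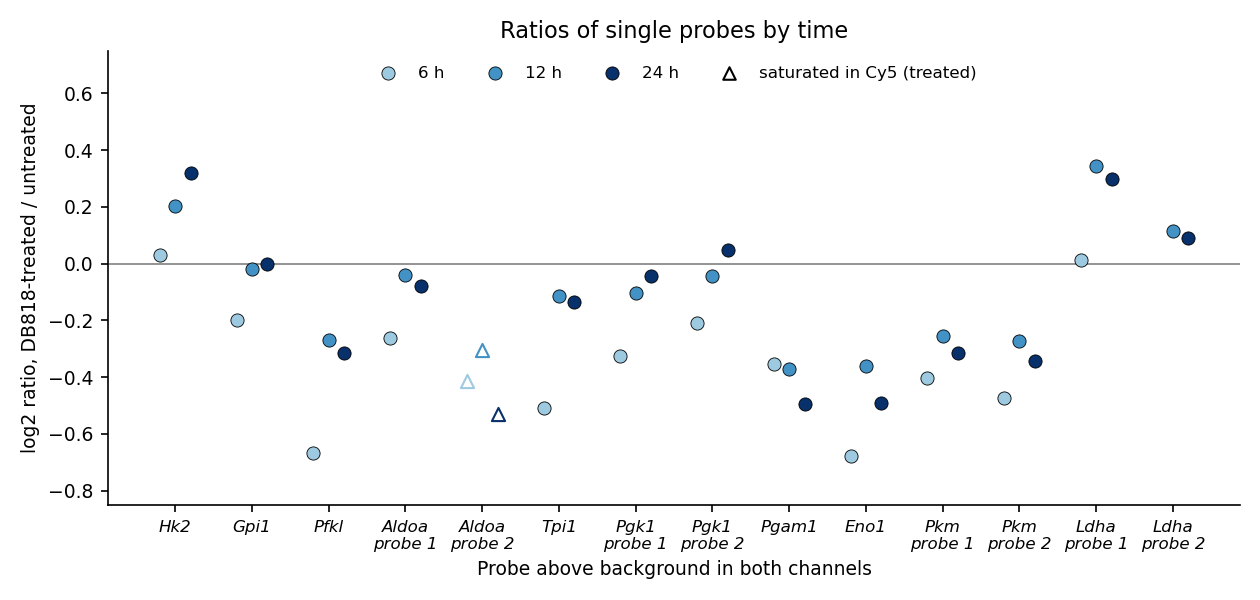
Log2 ratio of treated over untreated cells (y axis) for each of 14 probes above background in both channels (x axis), by time. Open triangles mark the Aldoa probe saturated in the treated channel, whose true ratio can only be higher; the dimmer Ldha probe has no 6 h point. The paired probes of Pkm and of Pgk1 lie close together, while those of Ldha differ at 12 and 24 h.

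At single times, described by size without a test, 5 enzymes were at least 20% lower at 6 h (Pfkl, Tpi1, Pgam1, Eno1 and Pkm), 2 at 12 h and 3 at 24 h. Over all genes this was reached by 0.725%, 0.723% and 1.46% at 6, 12 and 24 h. At these times 0 enzymes were at least 25% higher, which is the same fold upward, where 1.79%, 1.39% and 2.72% of all genes were. The 12 h genes were Pgam1 and Eno1, and Pkm joined them at 24 h. By sign, 7 enzymes were lower on all 3 arrays, against 21% of genes, and Hk2 and Ldha were higher on all 3, as 41.1% of genes were. The ratio was lowest at 6 h in 9 of 10 enzymes, the exception being Pgam1, against 36.4% of genes.

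The change with time was tested as a slope of the log2 ratio per doubling of time (limma, 1 residual degree of freedom). Hk2 was the enzyme that passed, with 0.14 ± 0.032 (adjusted p = 0.045), where 3.12% of all genes passed in either direction. The Hk2 level on the 6 h minus the 24 h array was -0.0013 in treated cells and 0.29 in untreated cells. The other slopes ran between -0.071 for Pgam1 (adjusted p = 0.274) and 0.19 for Tpi1 (adjusted p = 0.0805), and 9 of 10 were above 0. At an unadjusted p under 0.05, 7 slopes rose and 0 fell, against 10.4% and 9.58% of genes. The Hk2 slope is sensitive to processing: it was past the threshold in 4 of 9 alternatives, with an adjusted p of 0.0101 to 0.288.

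After scaling between arrays, the lower ratios at 6 h went with high untreated levels on the 6 h array. A log2 ratio is the treated minus the untreated level, so the 2 observations share values. How the difference split between the channels depended on that scaling. Levels in each channel were compared between arrays after loess and Aquantile normalisation, as a description. In treated cells, the 6 h array was above the 12 h array in 4 of 10 enzymes, against 51.5% of genes, and the median difference was -0.020 on the log2 scale. In untreated cells the 6 h array was above the 12 h array in 10 of 10 enzymes, against 47.9% of genes, and the median difference was 0.23. The 6 h array was above both later arrays in 2 enzymes in treated cells (38.3% of genes) and in 9 in untreated cells (35.4% of genes), the exception in untreated cells being Ldha. The medians for the 6 h minus the 24 h array were -0.026 in treated and 0.16 in untreated cells.

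The largest such difference among the enzymes in untreated cells was that of Pfkl, whose 6 h level exceeded its 12 h level by 0.21 in treated cells and by 0.60 in untreated cells. For Hk2 the same difference was 0.28 in treated cells, the largest there, and 0.45 in untreated cells. At least 25% higher on the 6 h than on the 12 h array were 0 enzymes in treated cells (0.868% of genes) and 2 in untreated cells, Hk2 and Pfkl (1.09% of genes). Without any normalisation between arrays, the untreated 6 h array was still above the 12 h array in 10 enzymes, but the medians of the 6 h minus the 12 h array became -0.11 in treated and 0.11 in untreated cells. Each level rests on 1 array, and array, labelling and culture cannot be told apart here.

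**Figure D3:**
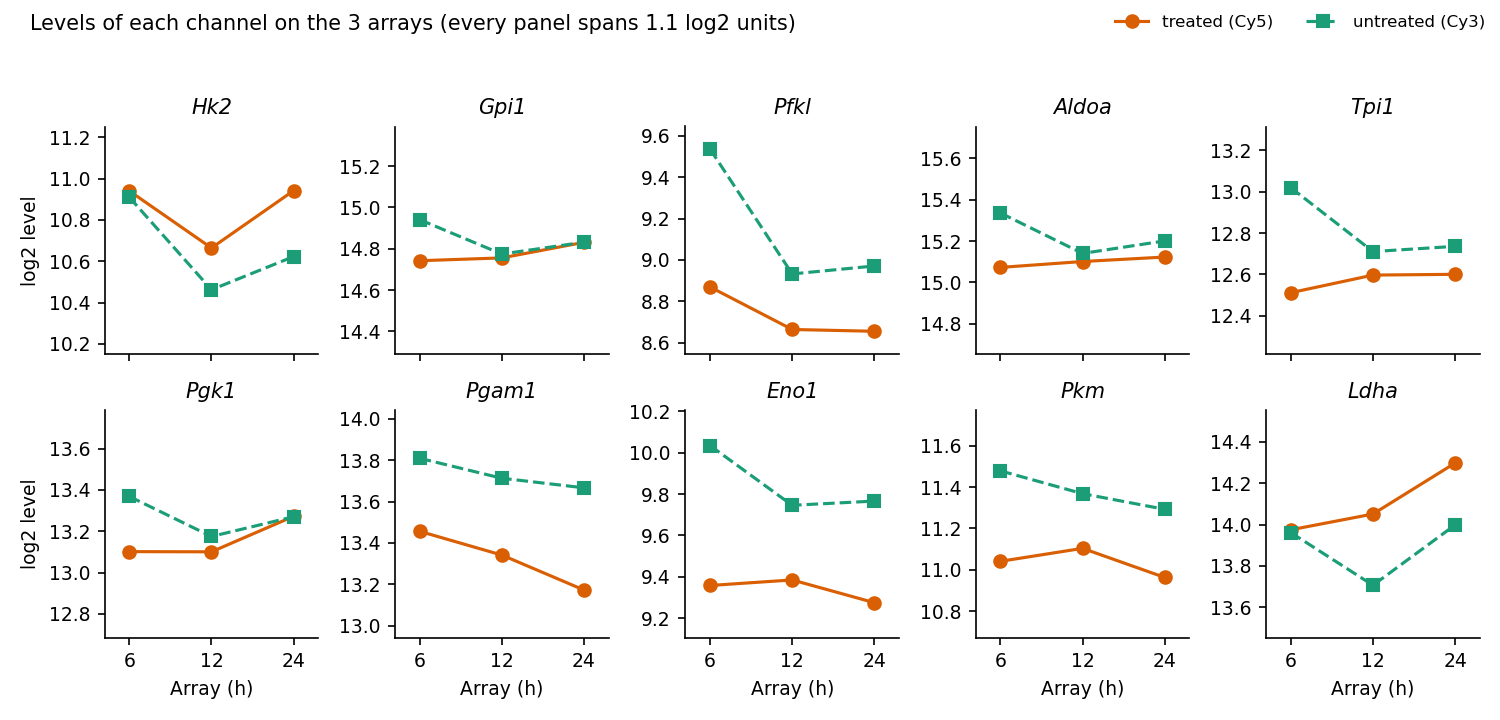
Log2 level of treated (orange circles) and untreated (green squares) cells for each enzyme on the 6, 12 and 24 h arrays, after loess and Aquantile; each panel has its own y range of equal span, and levels are not comparable between genes. Untreated points are higher on the 6 h than on the 12 h array in every panel, and in Pfkl, Aldoa, Tpi1, Pgam1, Eno1 and Pkm every treated point is below every untreated one. The order of the channels rests on the loess step, and for Aldoa, Tpi1, Pgam1 and Pkm the mean ratio turns positive with median centring. The share of all genes whose treated points all lie below their untreated ones was not counted.

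Untreated levels were high on the 6 h array also in the 21 measured genes of a list of non-glycolytic genes induced by hypoxia, which include Bnip3, Ankrd37 and Egln3. In treated cells 16 of 21 were above their 12 h level on the 6 h array, against 51.5% of all genes. The median difference was 0.092. In untreated cells 21 of 21 were, against 47.9% of all genes, with a median difference of 0.28. Untreated 6 h levels of 18 were above both later arrays, against 35.4% of all genes. Egln3, the prolyl hydroxylase that marks hypoxia-inducible factor for degradation, had ratios of -0.60, -0.18 and -0.20 and a mean of -0.33 ± 0.080 (limma adjusted p = 0.0262). Bnip3, a mitophagy receptor, had -1.03, 0.018 and -0.021 and its mean did not pass (-0.35 ± 0.19, adjusted p = 0.205). Ankrd37 had a 6 h ratio of -0.57 and Bhlhe40, a transcriptional repressor, a 24 h ratio of 0.47, and neither passed on the mean. The slopes of these 3 genes did pass, where 3.12% of all genes did. The fitted slope per doubling of time was 0.51 ± 0.11 for Bnip3 (limma adjusted p = 0.0382) and 0.31 ± 0.057 for Ankrd37 (adjusted p = 0.0231). Both ratios moved mainly between 6 and 12 h, and that of Ankrd37 was -0.0070 at 12 h and 0.0555 at 24 h. For Bhlhe40 the slope was 0.35 ± 0.036 (limma adjusted p = 0.0024). The ratio slope thus passed as rising in 3 of the 21 genes and as falling in 0. Treated log2 levels at 6, 12 and 24 h were 9.20, 8.74 and 9.18 for Bnip3 and 8.20, 6.80 and 7.04 for Ankrd37. Their untreated levels were 10.23, 8.72 and 9.20, and 8.77, 6.81 and 6.99. Bhlhe40 had 8.84, 9.18 and 9.40 in treated and 9.06, 8.97 and 8.92 in untreated cells. Of the 21 genes, 2 were called lower on the mean (Egln3 and Stc2), where 7.86% of all genes were. Rora was called higher, where 20.1% of all genes were, and 18 did not pass. The lowest ratio was at 6 h in 19 of the 21, against 36.4% of all genes. What part the state of the untreated cultures had in the ratios of the enzymes was not tested.

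**Figure D4:**
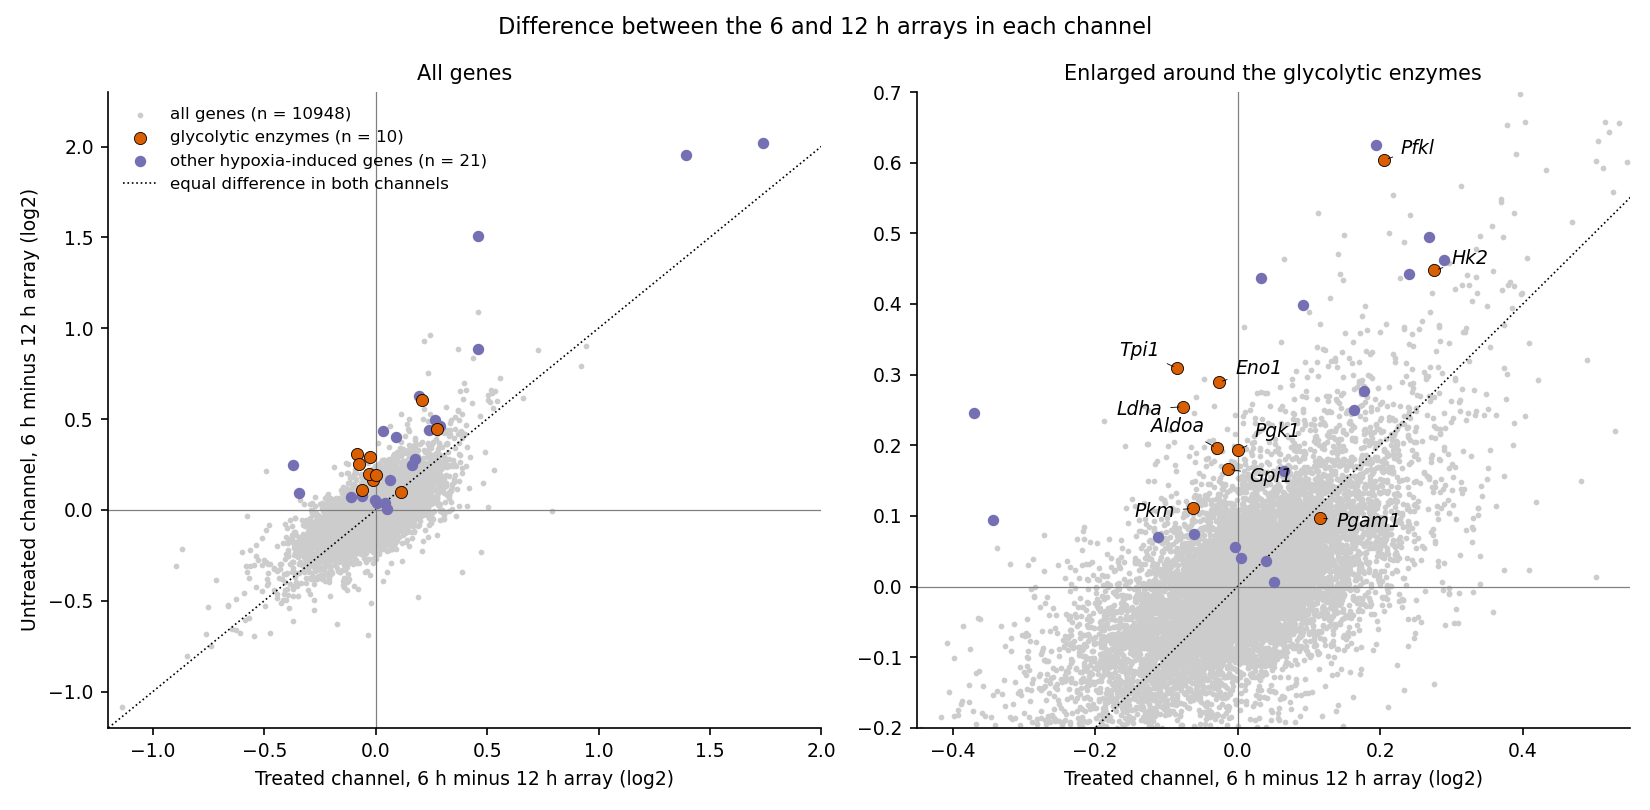
Difference between the 6 h and the 12 h array in the treated channel (x axis) and in the untreated channel (y axis), on the log2 scale, for all genes, the enzymes and the other hypoxia-induced genes; the right panel is enlarged around the enzymes, and 2 genes lie outside the left panel. All 10 enzymes lie above 0 on the untreated axis, between 0.097 for Pgam1 and 0.60 for Pfkl, and 6 lie below 0 on the treated axis.

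Neighbouring parts of carbon metabolism were described from lists of general knowledge. Over all genes 7.86% were called lower and 20.1% higher on the mean. Of 8 other measured glycolytic isozymes and related enzymes, 0 were lower and 7 did not pass, with a median mean ratio of 0.039. Bpgm, which makes the haemoglobin effector bisphosphoglycerate, was higher (0.10 ± 0.029, limma adjusted p = 0.0362). At limma's unadjusted p under 0.05, 2 differed in either direction, against 42.5% of all genes. Aldoc, aldolase C, had ratios of -0.13, 0.23 and 0.35, Hk1 had a mean of -0.11 ± 0.035 and Pfkp, the platelet phosphofructokinase, 0.064 ± 0.043, and none of these means passed. The slope of Aldoc passed, at 0.24 ± 0.039 per doubling of time (limma adjusted p = 0.0153). Of 18 carriers and regulators, 2 were lower, the glucose carriers Slc2a3 (-0.15 ± 0.036, adjusted p = 0.0263) and Slc2a6 (-0.12 ± 0.032), and 2 were higher, Pfkfb4 (0.13 ± 0.036, adjusted p = 0.0386) and Pdk3 (0.12 ± 0.034), which inhibits pyruvate dehydrogenase. The main glucose carrier Slc2a1 had ratios of -0.075, 0.44 and 0.42 and did not pass (limma adjusted p = 0.0816). Its log2 level was 11.08, 10.71 and 10.96 in treated cells and 11.15, 10.27 and 10.54 in untreated cells. Of 10 regulators of glycolytic genes, Egln3 and Hif1a (-0.12 ± 0.032, adjusted p = 0.0336) were lower and Max, the partner of MYC (0.24 ± 0.045, adjusted p = 0.0119), was higher. Vhl, which targets hypoxia-inducible factor for degradation, had a mean of -0.10 ± 0.038 (adjusted p = 0.079), and Myc itself had a mean of -0.071 ± 0.031 (adjusted p = 0.129).

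The pentose phosphate pathway branches off at glucose 6-phosphate and makes NADPH. Of its 8 genes, 3 were lower (7.86% of all genes) and 1 higher (20.1% of all genes). G6pdx, its first enzyme, had ratios of -0.36, -0.41 and -0.48 and a mean of -0.42 ± 0.035 (limma adjusted p = 0.00337). Pgd had a mean of -0.28 ± 0.039 and Taldo1 -0.17 ± 0.030, while Rpia had 0.31 ± 0.029 (limma adjusted p = 0.00337). These genes were brighter than Hk2, an enzyme of bin 10, where 18.9% of genes were called lower. With median centring, bin 10 had median ratios of 0.43, 0.37 and 0.43 at 6, 12 and 24 h. The ratios of the neighbouring lists are given with loess alone. Of 22 genes of pyruvate dehydrogenase and the citric acid cycle, Sdhd (-0.16 ± 0.029, limma adjusted p = 0.00987) was lower and 17 did not pass. The share called higher was 18.2%, near the 20.1% of all genes. These 4 genes were Idh3a (0.26 ± 0.031, adjusted p = 0.00468), Sucla2 (0.20 ± 0.029), Mdh2 (0.13 ± 0.030) and Sdhb (0.12 ± 0.029). Of 11 genes of glycogen and gluconeogenesis, Pygb (-0.20 ± 0.041, limma adjusted p = 0.015) and G6pc3 (-0.14 ± 0.030) were lower and 0 were higher. At limma's unadjusted p under 0.05, 5 of the 11 differed in either direction, near the share of 42.5% of all genes. Fbp1 (0.20 ± 0.062), Pgm1 (-0.19 ± 0.063) and Gys1 (-0.15 ± 0.050) did not pass on the mean, with adjusted p of 0.0559, 0.0641 and 0.0601. The slopes of Fbp1 (0.17 ± 0.035, limma adjusted p = 0.0345) and Pck2 (0.17 ± 0.032, adjusted p = 0.0244) passed, both rising. In the other 4 lists of neighbouring genes 0 genes passed the slope test, and from Agilent's processed signals 0 of all genes did. The medians of these lists' mean ratios lay between -0.074 and 0.039, and the median of the enzymes was -0.19; the difference between lists was not tested.

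**Figure D5:**
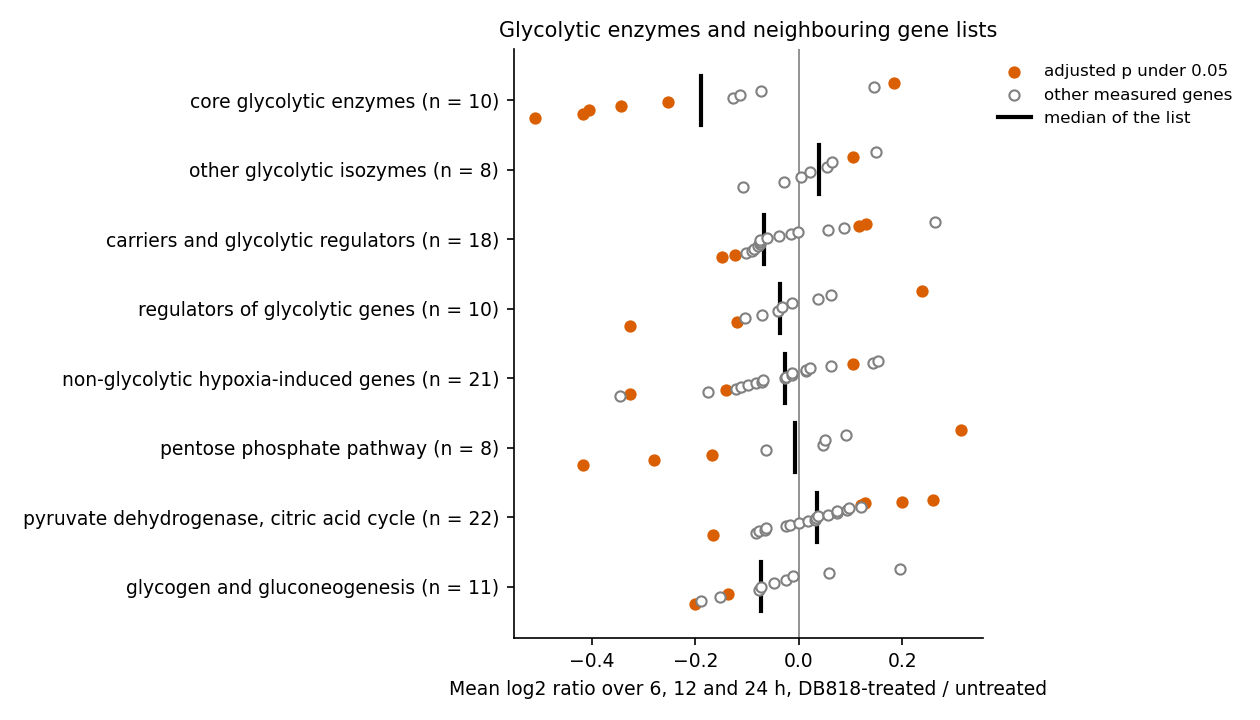
Mean log2 ratio over 6, 12 and 24 h, treated over untreated (x axis), of each measured gene in the enzyme list and in 7 neighbouring lists (y axis). Filled points passed limma's test at an adjusted p under 0.05, and black bars are list medians. The enzymes spread from -0.51 for Eno1 to 0.18 for Hk2, with a median of -0.19 that turns to 0.31 when arrays are centred on the median in place of loess.

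The genes most like the enzymes outside the list were found over 10945 genes by the distance of their 3 ratios from the enzymes' medians. Gys1, muscle glycogen synthase, was nearest, with ratios of -0.30, -0.092 and -0.065 (distance 0.043), followed by Nudt3, Aaas, a probe without an established symbol and Gtpbp1 (distances 0.048 to 0.061). By Pearson's r over the 6 channel values, given as a description among the 259 genes with an SD of at least 0.25, Egln3 was nearest (0.89), then Bnip3 (0.87), Sema6b (0.86), Rsrp1 (0.86) and another probe without a symbol (0.86). The 6 values share 3 arrays. The SD cut was not required of the enzymes themselves, and genes that varied less could not be found by this measure.

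The promoters of the 4 enzymes at the ends of the range of ratios are shown because the hypoxia-response core, ACGTG or GCGTG, and the MYC site, CACGTG, are the letters bound by known regulators of this pathway. Each window runs from 250 bases before to 50 bases after an annotated start in RefSeq on GRCm38.p6, is written 5′ to 3′ on the gene's strand, and has ACGTG and GCGTG, read on either strand, in capitals. The windows are chr4:150236947-150237246 (plus strand) for Eno1, chr10:78009758-78010057 (minus strand) for Pfkl, chr6:82774405-82774704 (minus strand) for Hk2 and chr7:46845554-46845853 (plus strand) for Ldha, of which the Eno1 window is 1 of 3 and the Ldha window 1 of 2 in the table.
Eno1: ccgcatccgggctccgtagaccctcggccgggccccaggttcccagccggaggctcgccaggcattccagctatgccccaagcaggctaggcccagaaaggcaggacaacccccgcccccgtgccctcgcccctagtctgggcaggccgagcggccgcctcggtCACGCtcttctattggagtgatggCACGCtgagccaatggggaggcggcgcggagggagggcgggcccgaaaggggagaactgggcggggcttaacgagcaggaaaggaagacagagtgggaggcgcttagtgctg
Pfkl: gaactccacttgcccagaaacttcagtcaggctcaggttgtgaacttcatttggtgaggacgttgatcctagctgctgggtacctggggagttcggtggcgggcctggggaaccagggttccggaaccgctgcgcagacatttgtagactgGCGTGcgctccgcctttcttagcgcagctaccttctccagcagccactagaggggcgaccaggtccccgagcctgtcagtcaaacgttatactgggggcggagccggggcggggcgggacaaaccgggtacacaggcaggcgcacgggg
Hk2: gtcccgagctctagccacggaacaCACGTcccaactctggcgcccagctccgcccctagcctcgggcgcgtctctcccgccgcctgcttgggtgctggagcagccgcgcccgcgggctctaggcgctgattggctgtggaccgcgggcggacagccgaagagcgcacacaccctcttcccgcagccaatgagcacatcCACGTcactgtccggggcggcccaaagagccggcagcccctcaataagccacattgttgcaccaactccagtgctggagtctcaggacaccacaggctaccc
Ldha: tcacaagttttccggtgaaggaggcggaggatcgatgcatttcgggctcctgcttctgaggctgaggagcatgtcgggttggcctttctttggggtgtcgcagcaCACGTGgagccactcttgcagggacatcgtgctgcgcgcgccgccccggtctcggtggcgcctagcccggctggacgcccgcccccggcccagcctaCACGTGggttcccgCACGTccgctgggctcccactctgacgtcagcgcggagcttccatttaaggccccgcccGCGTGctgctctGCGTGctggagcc

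All 10 enzymes matched the RefSeq table, with 16 windows, of which some of the same gene overlap. ACGTG or GCGTG lay in a window of 8 of the 10 enzymes and in 12 of the 16 windows, against 43.8% of 32851 promoters. ACGTG alone was found in 6 enzymes (19.6% of promoters), GCGTG in 4 (32.4%) and CACGTG, which holds ACGTG on both strands, in Ldha alone (7.15%). Gpi1 and Tpi1 had neither core in their window. ATTTA, letters found in HOXA9 sites and rich in the A and T bases that minor-groove binders favour, was found in 2 enzymes, against 34.1% of promoters. A gene with several windows has more chances of a match than a single promoter, and a match is a description of letters, not of binding.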

How the data were processed

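MigA9 cells treated with DB818 for 6, 12 or 24 h (Cy5) and untreated cells (Cy3) were hybridised to 1 two-colour Agilent array per time. The authors' scanner output, from Agilent Feature Extraction 9.1.3.1 per the submitters' processing notes, gives intensity for each channel and a log10 ratio of treated over untreated. The deposited value table holds that same log10 ratio, with a largest difference of 0 on each array. No table had columns of other samples.

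The deposited intensity (foreground mean, background median) was corrected by normexp with an offset of 50 and turned into log2 ratios by loess on each array (limma 3.58.1 under R 4.3.3). Controls and 37, 36 and 52 outlier spots had no weight. Repeated spots were averaged per probe. A gene took the mean of its unsaturated probes that both channels showed well above background. The offset draws ratios of dim genes toward 0. Gene names came from RefSeq by accession, symbol or synonym, and otherwise from the files. Channel levels were compared after Aquantile.

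The mean over the 3 times and the slope on log2 time were fitted with limma on 10955 genes with Benjamini-Hochberg adjustment. Single times, channels and promoters were described without a test. On simulated data with 67, 67 and 66 genes changed by 25%, by 1.5-fold and by 2-fold, the mean test recovered 42, 63 and 65 with 4 false calls, and the slope test 0, 34 and 44 with 0. The noise there was independent between genes and had no dye bias.

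The members and lists were chosen with earlier results of these data known. All 10 members and every probe were named. Of each other list the up to 4 genes with the largest absolute mean ratio were named, with Myc and genes behind small counts added after their values were seen, and the 5 nearest genes by each likeness. Alternatives covered background correction, offset, normalisation, the dim-probe filter, probe choice, saturated probes, array weights, leaving out an array and the threshold. Python 3.11.15 drew the figures, using matplotlib 3.10.9 on tables read by pandas 2.3.3 and numpy 2.4.6.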

Additional observations from a re-analysis of the deposited data

Results flagged for a closer look

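The Hk2 ratio changed between times by the test of the slope itself: it rose by 0.1442 per doubling of time (limma adjusted p = 0.045), from log2 ratios of 0.031, 0.20 and 0.32 at 6, 12 and 24 h. The Hk2 log2 level on the 6 and 24 h arrays was 10.94 and 10.94 in treated cells, and 10.91 and 10.62 in untreated cells. The slope was above 0 in all 9 alternatives that gave a value for it and past the threshold in 4 of them, and it rests on 1 array per time. Over all genes 3.12% passed the same test.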

How the results depend on the processing

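With 1 array per time, the number of arrays limits the precision, and the direction of small ratios of bright genes rests on the loess step. With arrays centred on the median without loess, the means of Gpi1 (0.56), Aldoa (0.53), Tpi1 (0.23), Pgk1 (0.40), Pgam1 (0.13) and Pkm (0.023) turned positive, and so did the median of the means (0.31) and the medians at 6, 12 and 24 h (0.25, 0.34 and 0.46). The same setting turned Tpi1 at 6 h (0.0032), Pgam1 at 6, 12 and 24 h (0.23, 0.10 and 0.063) and Pkm at 24 h (0.050), called 2 enzymes lower and 7 higher on the mean and 0 on the slope. Eno1 and Pfkl stayed lower in all 14 alternatives, and Pgam1 and Pkm in the 13 others. The count of enzymes lower was 4 to 6 in place of 5 in the settings other than median centring and the stricter threshold; at an adjusted p of 0.01 it was 3, with 0 higher and 0 on the slope. The count of enzymes higher was 0 with plain subtraction, Agilent's processed signals and no filter on dim probes, and 2 with the brightest probe, with probes measured on all arrays and with arrays weighted. Leaving out 1 array gave 0 to 2 enzymes higher (2 without the 6 h array, 0 without the 12 h and 0 without the 24 h array) and 4 to 5 lower, and without the 12 h array 143 genes were lower and 403 higher in place of 861 and 2199. The count on the slope was 0 with plain subtraction, Agilent's signals, offset 16 and no filter, 4 relative to genes of like brightness, 3 with the brightest probe and 2 with probes measured on all arrays, and over all genes it was 342, against 0 from Agilent's signals, 6 with offset 16 and 889 relative to like brightness. Over all genes, array weights gave 2120 lower and 4187 higher. The median at 24 h was -0.054 with offset 16 and -0.22 with saturated probes kept, where it was -0.14 at 12 h. Without normalisation between arrays the median 6 h minus 12 h level was -0.11 in treated and 0.11 in untreated cells, and the 6 h minus 24 h level -0.085 and 0.1111. The causes were not tested. Every ratio already pairs treated with untreated RNA on its array. No paired analysis was possible because, across times, the shared number 1 leaves no second array to block on, and the slope could not be fitted with an array left out.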
